A study of Drosophila melanogaster with 10 samples.

Results

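Wing disks that expressed NkdΔD6, the form of Naked cuticle (Nkd) without its D6 region, were compared with wing disks that expressed GFP. The comparison used the 2 NkdΔD6 and the 2 GFP libraries of a series of 10, chosen by the names of their columns in the count table, and all genes were examined. The genotypes were MS1096 > Nkd_del_D6_GFPC for NkdΔD6 and MS1096 > GFP for GFP, and both groups carried the MS1096-Gal4 driver. MS1096-Gal4 acts mainly in the wing pouch and more strongly on its dorsal side, so that the rest of each disk contributed RNA of cells with little or no transgene expression. The other libraries, 2 for each form, came from disks that expressed full-length Nkd, NkdΔR1S, which lacks the region bound by Dishevelled (Dsh), or NkdΔ30aa, which like NkdΔD6 lacks a potential nuclear localization signal. Each sample pooled about 70 wing disks of late larvae of the last instar kept at 25 °C. Per the methods, the samples of a group are biological duplicates, without a statement of whether they came from separate crosses. P-values therefore measure only how far these samples vary. The NkdΔD6 libraries held 19382787 and 19116476 counts, against 19909939 and 20581154 in the GFP libraries, and all 4 held the male-specific dosage compensation RNAs roX1 and roX2.

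Nkd is an antagonist of Wingless (Wg), the main Drosophila Wnt ligand. It binds Dsh, the adaptor that passes the signal from the Frizzled receptors to the complex that destroys β-catenin (Armadillo), and the nkd gene is itself switched on by Wg, which makes it a feedback inhibitor. In the wing disk Wg from the dorsoventral boundary patterns the margin and the blade, beside the Notch, Decapentaplegic (Dpp), Hedgehog, epidermal growth factor receptor (EGFR) and Fat/Hippo pathways.

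The nkd gene (FBgn0002945, BDGP6, 3L, 19003741 to 19045449, minus strand) was far more abundant in NkdΔD6 disks. Its level was 1349 and 993 CPM (counts per 1000000, scaled by TMM) in NkdΔD6, against 37.3 and 70.1 CPM in GFP, with means of 1171 ± 252 and 53.7 ± 23.2 CPM (SD, n = 2 each). Both NkdΔD6 libraries lay far above both GFP libraries. The log2 fold change was 4.45 ± 0.37 (SE), and the adjusted p of edgeR's quasi-likelihood test was 0.0065, with 0.067 when NkdΔD6 replicate 1 was left out. Transgene and endogenous reads are counted together. The other forms stood at 1141 and 1190 CPM for full-length Nkd, 345 and 512 for NkdΔR1S and 1176 and 1498 for NkdΔ30aa. NkdΔD6 and full-length Nkd differed by 0.01 ± 0.32 on the log2 scale (SE, adjusted p = 0.994).

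Over the 9264 genes tested, 959 (10.4%) were called higher and 538 (5.81%) lower in NkdΔD6 disks, which is 16.2% in either direction. The call required more than 1.5-fold and an adjusted p below 0.05. The genes called higher had a median size of 0.93 on the log2 scale and 397 of them passed 2-fold, while those called lower had a median size of 0.74 and 133 passed 2-fold. The libraries of both groups did not overlap for 68.6% of the genes tested. Called genes split into 64.1% higher and the rest lower with TMM, against 77.3% higher with RLE, the median-of-ratios scaling of DESeq2, which gave 1090 genes higher and 320 lower. The median log2 fold change of all genes was -0.10 with TMM and -0.02 with RLE.

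The calls depended on single libraries. Left without NkdΔD6 replicate 1, edgeR called 0 genes, although 2519 genes had an unadjusted p under 0.05. Without GFP replicate 1 it called 3 genes higher (nkd, Bace and CG16710) and 5 lower, among them krimp, Ect3 and lncRNA:dntRL, with 2465 at an unadjusted p under 0.05. Without GFP replicate 2 there were 1129 and 402 calls, and without NkdΔD6 replicate 2 there were 896 and 519. Each of the 1497 genes called kept its direction when any one of these libraries was left out. This was all but fixed in advance, because the libraries of both groups did not overlap for any of them. DESeq2 on the 4 libraries called 1201 genes higher and 349 lower.

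Long genes were higher and short genes lower in NkdΔD6 disks. Genes were split into 5 equal bins by exon length, the number of bases covered by the exons of a gene. In the shortest bin, of 67 to 1081 bases, 13 genes were called higher and 265 lower, with a median log2 fold change of -0.43. In the longest bin, of 3939 bases and more, 748 were called higher and 15 lower, with a median of 0.57. The longest bin therefore held 748 of the 959 genes called higher. The median exon length was 5538 bases for genes called higher, 1091 for genes called lower and 2020 for all genes tested, and Spearman's rho between exon length and log2 fold change was 0.52 across genes.

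The trend was present in each of the 4 pairings of a NkdΔD6 with a GFP library and, more weakly, between the samples of 1 group. In the longest bin the median difference was 0.72 and 0.51 for NkdΔD6 replicate 1 minus GFP replicates 1 and 2, and 0.61 and 0.41 for NkdΔD6 replicate 2. It was 0.13 between the NkdΔD6 replicates and -0.20 between the GFP replicates, and 0.15 for NkdΔD6 minus full-length Nkd. Ranked over genes, exon length correlated with how far a library lay from the 10-library mean at 0.28 and 0.14 in NkdΔD6, between -0.43 and 0.62 in the other forms, and -0.62 and -0.48 in GFP. The series gives no measure of RNA integrity, and the part of exon length in the results was not tested beyond the following refit. When a smooth trend on exon length was taken out of each library by offsets, 281 genes (3.03%) were called higher and 263 (2.84%) lower, and of these 252 and 140 were among the earlier calls. Another 71 genes called higher without offsets took a negative sign with them, and none of those called lower turned positive. The gene and marker lists that follow are therefore given with and without the offsets, and their shares called higher and lower stand beside 10.4% and 5.81% of all genes tested, or 3.03% and 2.84% with the offsets.

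**Figure D1:**
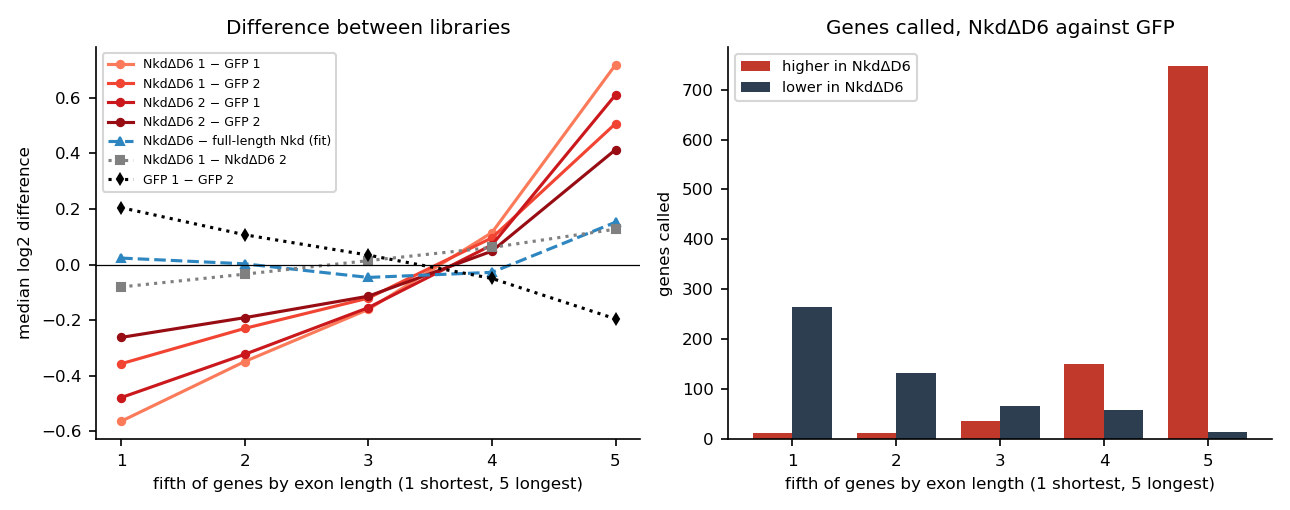
Left, median log2 difference (y axis) in 5 bins of exon length (x axis), for the 4 pairs of a NkdΔD6 and a GFP library, for NkdΔD6 against full-length Nkd and between replicates; right, genes called higher and lower in NkdΔD6 per bin. All 4 pairs climb with length, to between 0.41 and 0.72 in the longest bin, where the replicates differ by 0.13 (NkdΔD6) and -0.20 (GFP), and 748 genes are called higher there.

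The gene with the largest increase was Bace, an aspartic protease of the β-secretase family (FBgn0032049, 2L, 8494893 to 8496307). It had 25.3 and 22.6 CPM in the NkdΔD6 libraries and no count in either GFP library, so it was at least 299-fold higher when the GFP group is set to a floor of 3 counts (adjusted p = 0.0065, edgeR). In the other forms it reached 1.06 and 0.84 CPM in NkdΔ30aa and no more than 0.11 CPM elsewhere. CG16710 (3R, 23682503 to 23683980) stood apart in the same way. Its level was 11.7 and 13.0 CPM in NkdΔD6, against 0.61 and 0.57 in GFP, with 0.83 to 1.20 CPM in the other 6 libraries (log2 fold change 4.38 ± 0.36, adjusted p = 0.0059, edgeR). Neither gene approached its NkdΔD6 level in any library of another group.

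Hsc70-2, a member of the Hsp70 chaperone family (3R, 13044759 to 13047388), was measured at 10.1 and 12.9 CPM in NkdΔD6 and at 0.22 and 0.46 CPM in GFP (5.04 ± 0.61, adjusted p = 0.0087, edgeR). It was also high in NkdΔ30aa, with 19.4 and 19.2 CPM, and low in full-length Nkd, with 0.45 and 0.10 CPM. The groups with this RNA were those whose Nkd lacks a potential nuclear localization signal. The insertion sites of the transgenes were not given in the sources used here. Per the methods, the UAS-Nkd lines went through at least 5 generations of outcrossing to a shared background, which is not said of the GFP line. A transgene and what is left of the genetic background of its stock cannot be told apart, for this gene as for those above and below. CG13324 had 39.1 and 33.6 CPM in NkdΔD6, against 0.22 and 0.05 in GFP. The GFP values rest on 5 counts in all, which gives a ratio of 272 with a 95% counting interval of 116 to 840. CG6283 had 3.81 and 31.2 CPM in NkdΔD6, against 0.17 and 0.15 in GFP, so its replicates differed widely between themselves. The pseudogene 28SrRNA-Psi:CR45860 had 133.5 and 102 CPM, against 0.72 and 3.04, but it shares its sequence with many ribosomal RNA copies, and reads of these cannot be assigned with certainty.

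Below these stood genes with smaller increases. InR, the insulin receptor, had 37.6 and 32.8 CPM in NkdΔD6, against 7.93 and 12.5 in GFP (1.78 ± 0.32, adjusted p = 0.012, edgeR). Ptip, a subunit of a histone methyltransferase complex, had 52.3 and 34.8 CPM, against 9.65 and 13.8 in GFP (1.89 ± 0.32), and heca (headcase), a gene of imaginal cell growth, had 235.8 and 198.6 CPM, against 51.6 and 63.6 (1.91 ± 0.29). Cda5, a chitin deacetylase-like gene, had 11.7 and 6.67 CPM, against 1.66 and 1.70 (2.45 ± 0.33). These 4 genes are long, with exons of 8068 to 15063 bases, and remained called with the length offsets, at 0.89, 1.16, 0.87 and 1.53. CR30029, a short pseudogene, was the remaining one of the 12 largest increases, with 17.5 and 17.3 CPM, against 4.99 and 3.25. All 12 increases kept their sign when any one of the 4 libraries was left out, which their choice by libraries without overlap all but fixed. DESeq2 on the 4 libraries called all 12.

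Among the decreases, krimp (Krimper, 2R, 16238103 to 16240722), a Tudor-domain protein that binds Piwi-family proteins in the germline piRNA pathway, was at 3.66 and 2.80 CPM in NkdΔD6, against 40.8 and 44.3 CPM in GFP (-3.72 ± 0.30, adjusted p = 0.0059, edgeR). The other forms were split, with 5.51 and 6.39 CPM in full-length Nkd, 4.08 and 2.98 in NkdΔ30aa and 48.3 and 27.8 in NkdΔR1S. The low group thus held 3 of the 4 Nkd forms, and NkdΔR1S stood with GFP.

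The noncoding RNA lncRNA:dntRL (2R, 4621118 to 4622481) was close to 0 in NkdΔD6 disks. It had 0.10 and 0.15 CPM in NkdΔD6, from 5 counts in all, against 18.1 and 15.7 CPM in GFP, a ratio of 0.0076 with a 95% counting interval of 0.0025 to 0.018. It was at most 1.07 CPM in the 6 libraries of the other forms, so that only the GFP libraries held it in quantity. Ect3, a lysosomal β-galactosidase, was at 6.02 and 7.12 CPM in NkdΔD6, against 21.03 and 34.5 in GFP (-2.08 ± 0.24, adjusted p = 0.0087, edgeR). It was also low in NkdΔ30aa, at 2.16 and 2.84 CPM, and at 24.0 to 32.4 CPM in the other forms. GstD3, a glutathione S-transferase, was at 27.6 and 23.2 CPM in NkdΔD6, against 97.9 and 70.4 in GFP (-1.73 ± 0.24), and at 4.85 and 7.81 CPM in NkdΔ30aa.

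The other decreases among the largest 12 were Mal-A3, a maltase, CG6357, Cpr35B, a cuticle protein, Pka-C3, a kinase related to the catalytic subunit of protein kinase A, CG15546, hpRNA:CR32205, a hairpin RNA, Osi2, of the Osiris family, and Spn47C, a serpin. Their log2 fold changes ran from -5.55 for Mal-A3 to -1.71 for Spn47C. Mal-A3 was uneven within GFP, at 0.10 and 0.31 CPM in NkdΔD6, against 2.66 and 17.1 in GFP. All 12 decreases remained called with the length offsets. Without GFP replicate 1 edgeR called 3 of them, without GFP replicate 2 it called 9, without NkdΔD6 replicate 2 it called 10, and without NkdΔD6 replicate 1 it called 0 (12 at an unadjusted p under 0.05).

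**Figure D2:**
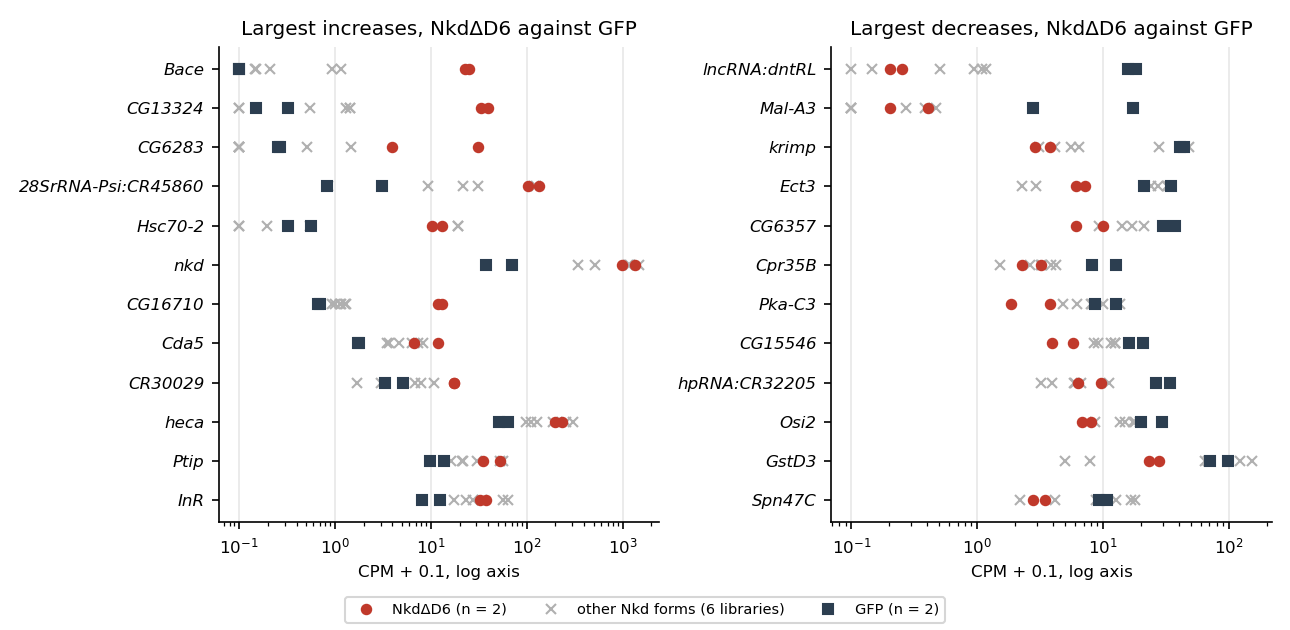
Level of the 12 largest increases (left) and 12 largest decreases (right) in every library, as CPM plus 0.1 on a log axis, with NkdΔD6 as circles, the 6 libraries of the other Nkd forms as crosses and GFP as squares. NkdΔD6 and GFP do not overlap for any of them because the choice of genes required it; Bace and CG16710 are high in NkdΔD6 alone, whereas krimp and lncRNA:dntRL are also low in most other forms.

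Set against full-length Nkd, the form that keeps D6, NkdΔD6 differed in 12 of 9264 genes (0.13%), 7 higher and 5 lower. These forms came from separate transgenic lines, so the loss of D6 and what is left of each line's background cannot be told apart. The GFP libraries entered this contrast only through the filter, the scaling and the spread estimated over all libraries. The genes higher were Bace, CG16710, Hsc70-2, Cyp6t3, CG6059, Tmc and CG14715, and those lower were Ect3, NaPi-III, GstD9, CG13032 and lncRNA:CR46123, some of which fall outside the rule for named genes and were named after their values were seen. Cyp6t3, a cytochrome P450, had 8.80 and 6.21 CPM in NkdΔD6, against 0.40 and 0.44 in full-length Nkd (4.15 ± 0.38, adjusted p = 0.010, edgeR), and 0.78 and 1.18 in GFP. NaPi-III, a phosphate transporter, had 58.5 and 44.7 CPM in NkdΔD6, against 110.2 and 135 in full-length Nkd (-1.25 ± 0.15, adjusted p = 0.030), and 31.3 and 27.97 in GFP, so NkdΔD6 lay between both. CG14715 had 39.2 and 41.6 CPM in NkdΔD6, against 14.8 and 14.7 in full-length Nkd, while GFP had 61.3 and 55.2.

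Each of the 12 kept its sign in all 12 alternative fits, but none was called in more than 9 of them. With NkdΔD6 replicate 1, NkdΔD6 replicate 2 or Nkd replicate 2 left out edgeR called 0 genes, with 526, 1085 and 996 at an unadjusted p under 0.05, and without Nkd replicate 1 it called 4 higher and 1 lower. Without GFP replicate 1, and likewise without GFP replicate 2, it called 5 higher and 5 lower, of which 4 and 4 were among the 12. DESeq2 on all libraries called 59 higher and 50 lower. Length bins differed little here, and rho between exon length and log2 fold change was 0.11.

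Genes of the Wg pathway moved little as a group. Of its 38 tested genes, from ligands and receptors to nuclear cofactors, 7 (18.4%, beside 10.4% of all genes tested) were called higher and 0 lower. The 7 included nkd, the overexpressed gene itself, whose call was set by the design. The median log2 fold change was 0.20, beside -0.10 over all genes tested. No gene was called lower by DESeq2 on the 4 libraries either, and 0 were lower at an unadjusted p under 0.05 and the same 1.5-fold threshold, which also applies to such counts for the lists below. The ligand wg had 93.2 and 94.0 CPM in NkdΔD6, against 71.9 and 91.1 in GFP (0.20 ± 0.16, adjusted p = 0.373, edgeR). The adaptor dsh had 77.9 and 75.3 CPM, against 77.4 and 84.0 in GFP (-0.07 ± 0.08, adjusted p = 0.541). Neither passed the test, and the libraries of dsh overlapped.

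The members called higher, apart from nkd, were led by nej, the CBP histone acetyltransferase that acts as a nuclear cofactor of the pathway, and Apc, a scaffold of the β-catenin destruction complex. Nej had 114 and 81.3 CPM in NkdΔD6, against 26.9 and 34.9 in GFP (1.66 ± 0.30, adjusted p = 0.012, edgeR), and was called with the length offsets too. Apc had 49.5 and 38.2 CPM, against 15.7 and 20.7 in GFP (1.27 ± 0.24, adjusted p = 0.012), and was not called with them. With the offsets 2 of the 38 genes were higher, namely nkd and nej, 3 were lower and the median was -0.06. Among 15 Wg targets of the wing, 4 (26.7%, beside 10.4% of all genes) were called higher and 0 lower (0 lower also by DESeq2 on the 4 libraries and at an unadjusted p). They were nkd, the homeobox genes dve and ct, and the growth regulator Myc, whose log2 fold change of 0.72 was -0.06 with the offsets. As the overexpressed gene itself, nkd was called by design and does not report on Wg target expression. Myc shares 61.2% of its exon bases with other annotated genes, so its reads are assigned with less certainty. The median of the 15 targets was 0.15, with 8 positive and 7 negative, and it was -0.06 with the offsets. Under the offsets 2 targets were called higher, nkd and dve, and 0 lower. Leaving out NkdΔD6 replicate 1 left 0 pathway genes and 0 targets called by edgeR (7 and 5 higher at an unadjusted p), while leaving out GFP replicate 1 left nkd alone (7 and 4).

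Notch pathway genes moved both ways. Of 31 tested, 8 (25.8%, beside 10.4% of all genes) were called higher and 7 (22.6%, beside 5.81%) lower, with a median of 0.23. The members higher were the receptor N, its ligands Delta and Ser, the ADAM proteases Kul and kuz, the repressors H (Hairless) and gro, and the target ct. N had 317 and 270 CPM in NkdΔD6, against 118 and 157 in GFP (1.09 ± 0.19, adjusted p = 0.010, edgeR). H, which holds Notch targets off together with Su(H), had 78.6 and 71.5 CPM, against 24.6 and 36.4 in GFP (1.30 ± 0.23, adjusted p = 0.011). Delta had 96.7 and 90.9 CPM, against 36.8 and 55.5 in GFP, and Ser had 271 and 214 CPM, against 111 and 118.

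All 7 members called lower were genes of the Enhancer of split complex, the direct Notch targets that encode bHLH repressors and Bearded-family proteins. E(spl)m7-HLH had 23.5 and 28.5 CPM in NkdΔD6, against 54.3 and 44.98 in GFP (-0.93 ± 0.17, adjusted p = 0.012, edgeR). E(spl)m2-BFM had 43.2 and 54.7 CPM, against 87.9 and 91.0 in GFP (-0.87 ± 0.12), and E(spl)m3-HLH had 56.9 and 76.6 CPM, against 122.8 and 107 (-0.78 ± 0.14). The 7 values ran from -0.93 to -0.62, and the eighth member tested was at -0.25. These genes are short, with exons of 676 to 1305 bases, and with the length offsets their median moved to -0.25 from -0.69, 7 of 8 stayed negative and 0 were called by edgeR (0 also at an unadjusted p and the 1.5-fold threshold). With RLE and with DESeq2 on the 4 libraries 4 of the 8 were called lower.

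With the offsets the whole list had 1 gene higher, H, and 0 lower, with a median of 0.01. No Notch gene was called by edgeR without NkdΔD6 replicate 1 (8 higher and 3 lower at an unadjusted p) or GFP replicate 1 (8 and 6), and leaving out GFP replicate 2 left 4 lower calls.

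**Figure D3:**
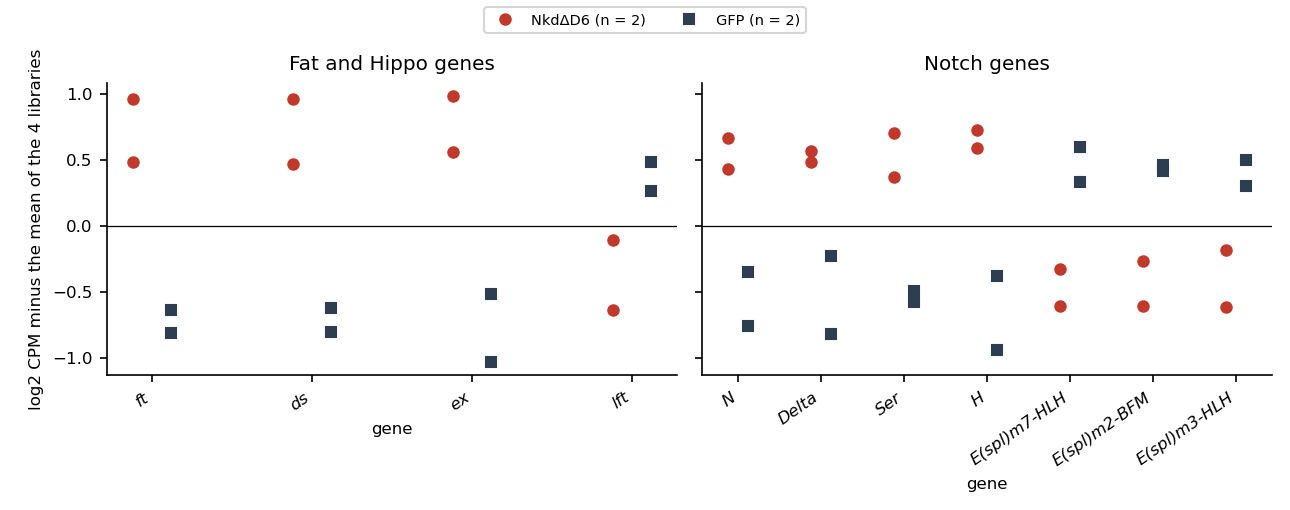
Log2 CPM of each library minus the mean of the 4 libraries (y axis) for genes of the Fat/Hippo and Notch pathways (x axis), with NkdΔD6 as circles and GFP as squares (n = 2 each). The NkdΔD6 libraries lie above GFP for ft, ds, ex, N, Delta, Ser and H and below it for lft and the 3 E(spl) genes.

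Many Fat/Hippo genes were called higher. Of 38 genes tested, 19 (50%, beside 10.4% of all genes tested) rose and 1 fell, with a median of 0.56, and 34 had libraries that did not overlap, as did 68.6% of all genes tested. The atypical cadherin ft (Fat), which restrains growth through Hippo signaling and sets planar polarity, had 249.6 and 179 CPM in NkdΔD6, against 72.8 and 82.0 in GFP (1.47 ± 0.23, adjusted p = 0.0095, edgeR). Its ligand ds (Dachsous) had 330.3 and 235 CPM, against 97.1 and 110.2 in GFP (1.45 ± 0.25, adjusted p = 0.010). Ex (Expanded), an upstream activator of the Hippo kinase that is itself a target of Yorkie, had 329 and 246 CPM, against 81.3 and 116 in GFP (1.54 ± 0.34, adjusted p = 0.019). The libraries of all 3 genes were apart, and NkdΔD6 replicate 1 was the higher one each time.

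The member called lower was lft (Lowfat), a short gene for a protein that binds Fat and Dachsous, with 127 and 183 CPM, against 237 and 277 in GFP (-0.73 ± 0.18, adjusted p = 0.024, edgeR). With the length offsets 5 genes were called higher and 0 lower and the median was 0.00. None of ft, ds, ex and lft was called with them, and their values were 0.36, 0.48, 0.91 and -0.43. EdgeR called 0 Hippo genes without NkdΔD6 replicate 1 (at an unadjusted p, 17 higher and 0 lower) and 0 without GFP replicate 1 (14 and 1). DESeq2 on the 4 libraries called 20 higher and 1 lower.

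In the EGFR and Ras-MAPK list, 12 of 30 genes (40%, beside 10.4% of all genes) were called higher and 0 lower (0 lower by DESeq2 on the 4 libraries and at an unadjusted p), with a median of 0.24. The receptor Egfr had 246 and 181 CPM in NkdΔD6, against 88.9 and 114 in GFP (1.07 ± 0.21, adjusted p = 0.012, edgeR). The repressors at the end of the pathway rose as well. Cic (Capicua) had 162 and 147 CPM, against 66.2 and 80.1 (1.08 ± 0.21), and aop (Yan) had 85.1 and 77.9 CPM, against 30.1 and 47.6 (1.07 ± 0.23). With the length offsets the list had 0 higher (3.03% over all genes) and 5 lower (2.84% over all genes) and a median of 0.03, so its calls then lay in the other direction.

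In the Dpp list 11 of 26 genes (42.3%, beside 10.4% of all genes) were called higher and 0 lower (0 by DESeq2 on the 4 libraries and 1 at an unadjusted p), with a median of 0.43 and with 1 higher and a median of 0.04 under the offsets. The ligand dpp had 59.7 and 54.3 CPM in NkdΔD6, against 47.4 and 50.1 in GFP (0.23 ± 0.10, adjusted p = 0.138, edgeR), and -0.27 with the offsets. Shn (Schnurri), the cofactor by which Dpp represses brk, had 54.7 and 46.7 CPM, against 19.1 and 23.6 in GFP (1.25 ± 0.30, adjusted p = 0.021). Salm (Spalt major), a target of Dpp in the wing blade, had 89.9 and 73.6 CPM, against 29.1 and 43.4 (1.17 ± 0.25). Without NkdΔD6 replicate 2 the higher calls were 7.

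In the Hedgehog list 6 of 23 genes (26.1%, beside 10.4% of all genes) were called higher and 1 (4.35%, beside 5.81%) lower, with a median of 0.23, and 1 and 1 under the offsets, with a median of -0.08. Pka-C1, the kinase that primes Cubitus interruptus for processing, had 77.7 and 76.8 CPM in NkdΔD6, against 31.7 and 42.6 in GFP (1.06 ± 0.20, adjusted p = 0.012, edgeR). Botv, a glycosyltransferase of heparan sulfate synthesis, had 30.5 and 23.2 CPM, against 13.1 and 14.2, and was called with the offsets, whereas rasp, the acyltransferase of Hedgehog, was lower at 58.3 and 56.7 CPM, against 79.5 and 94.0 (-0.59 ± 0.12). In the JNK list 1 of 23 genes (4.35%, beside 10.4% of all genes) was called higher, Mekk1, and 0 lower (0 by DESeq2 on the 4 libraries and at an unadjusted p), with a median of -0.16, which was 0.25 without GFP replicate 1, and with the offsets 0 were higher and 2 lower, with a median of -0.11. When NkdΔD6 replicate 1 or GFP replicate 1 was left out edgeR called 0 genes of the EGFR, Dpp, Hedgehog and JNK lists (for EGFR 11 and 9 higher at an unadjusted p, for Dpp 10 and 7, for Hedgehog 6 and 5, for JNK 3 and 2).

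Genes of wing and vein morphogenesis were called higher in 35 of 87 cases (40.2%, beside 10.4% of all genes) and lower in 1, with a median of 0.44, and 69 had libraries that did not overlap, as did 68.6% of all genes tested. Of the genes that pattern blade and hinge, some were among them and others, such as vg and sd at -0.17 and 0.30 (named after their values were seen), were not called. Rn (rotund) had 97.2 and 86.7 CPM in NkdΔD6, against 28.9 and 49.6 in GFP (1.23 ± 0.25, adjusted p = 0.014, edgeR), and zfh2 had 184 and 147 CPM, against 49.3 and 70.5 (1.46 ± 0.32). Dve (defective proventriculus) had 52.9 and 38.2 CPM, against 19.3 and 23.2 (1.10 ± 0.18), and mirr, of the Iroquois complex, had 96.6 and 79.8 CPM, against 41.3 and 48.1 (0.98 ± 0.20). Dve and mirr belong to the 4 members that were called with the length offsets as well, where the list had a median of 0.00 and 0 lower. The member called lower was Timp, an inhibitor of matrix metalloproteases, at 6.75 and 10.6 CPM, against 19.6 and 18.4 (-1.13 ± 0.27).

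Polarity, adhesion and matrix genes followed the same pattern. In planar cell polarity 6 of 19 genes (31.6%, beside 10.4% of all genes) were called higher and 0 lower, among them the cadherin stan (Flamingo) with 88.6 and 67.2 CPM in NkdΔD6, against 27.6 and 31.4 in GFP (1.40 ± 0.22, adjusted p = 0.0098, edgeR). In axon guidance and adhesion 21 of 47 (44.7%) were higher and 0 lower. CadN (N-cadherin) had 17.7 and 16.2 CPM, against 4.94 and 5.87 (1.65 ± 0.27), and was called with the offsets at 0.63. In the integrin and laminin list 9 of 23 (39.1%) were higher and 0 lower, including LanA (laminin α chain) with 363 and 279 CPM, against 135.5 and 163, rhea (talin) with 114.7 and 90.6 CPM, against 41.9 and 51.2, and trol (perlecan) with 165 and 113 CPM, against 56.3 and 62.6.

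With the offsets these lists had medians of 0.04, -0.02 and 0.02, with 1, 3 and 0 genes called higher and 0, 4 and 0 lower. Trol, with exons of 20284 bases, was at 0.03. The wing, polarity, axon and integrin lists had 0 genes called by edgeR without NkdΔD6 replicate 1 (at an unadjusted p, 34, 5, 19 and 9 higher) and 0 without GFP replicate 1 (31, 7, 19 and 8). DESeq2 on the 4 libraries called 37, 7, 26 and 9 higher and, outside the wing list with 1, 0 lower, and at an unadjusted p 0 genes of the last 3 lists were lower.

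**Figure D4:**
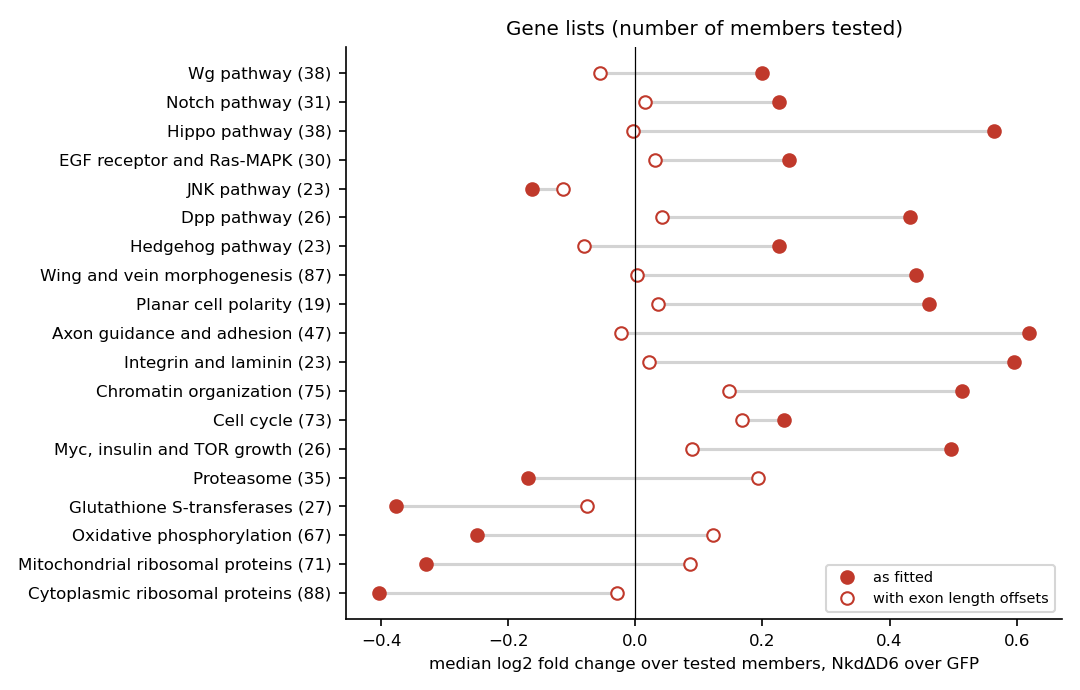
Median log2 fold change of NkdΔD6 over GFP (x axis) for the tested members of 19 gene lists (y axis, number of members in brackets), as fitted (filled) and with exon length offsets (open). All 19 lists lie within 0.2 of 0 with the offsets, the Hippo list to 0.00 from 0.56 and the cytoplasmic ribosomal proteins to -0.03 from -0.40, while the cell cycle list stays at 0.17.

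Many chromatin genes were called higher in NkdΔD6 disks, and fewer with the offsets. Of 75 tested, 35 (46.7%, beside 10.4% of all genes) were called higher, 1 lower and 39 in neither direction, with a median of 0.51, and with the offsets 13 (3.03% over all genes) were higher and 1 lower with a median of 0.15, of which 12 were higher in both. Jarid2, a partner of Polycomb repressive complex 2, had 87.3 and 63.7 CPM in NkdΔD6, against 23.6 and 26.3 in GFP (1.60 ± 0.24, adjusted p = 0.0095, edgeR; 0.82 with the offsets, called). The Trithorax methyltransferase trx had 87.2 and 61.6 CPM, against 23.2 and 30.1 (1.48 ± 0.29), and was not called with the offsets at 0.47. The member called lower was pho (Pleiohomeotic), which recruits Polycomb complexes to DNA, with 111 and 147 CPM, against 194 and 200.1 (-0.61 ± 0.15). With the offsets pho was at -0.56 and not called. It lies on chromosome 4, whose genes were lower as a set in a way that depended on single libraries, as given below.

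In the cell cycle list 21 of 73 genes (28.8%, beside 10.4% of all genes) were called higher and 1 lower, with a median of 0.23, and with the offsets 10 higher (3.03% over all genes) and 0 lower with a median of 0.17, 9 of them in both. PolA1, the catalytic subunit of DNA polymerase α, had 69.7 and 49.2 CPM in NkdΔD6, against 18.4 and 21.02 in GFP (1.59 ± 0.26, adjusted p = 0.010, edgeR; 1.17 with the offsets). Cmet, a kinetochore kinesin, had 73.0 and 66.1 CPM, against 22.7 and 32.2 (1.34 ± 0.21), and sti (citron kinase), needed for cytokinesis, had 210.1 and 155 CPM, against 68.3 and 76.0 (1.34 ± 0.19). Both were called with the offsets, at 0.68 and 0.74. Rux, an inhibitor of Cyclin A-dependent kinase, was lower, with 17.8 and 17.2 CPM, against 27.7 and 24.9 (-0.59 ± 0.11).

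Of 26 growth genes of the Myc, insulin and TOR pathways, 8 (30.8%, beside 10.4% of all genes) were called higher and 1 (3.85%, beside 5.81%) lower, with a median of 0.50. With the offsets 3 were higher and 1 lower, with a median of 0.09. Beside InR they included the catalytic PI3-kinase subunit Pi3K92E, with 90.8 and 74.1 CPM in NkdΔD6, against 30.3 and 39.1 in GFP (1.25 ± 0.18, adjusted p = 0.0089, edgeR), and the kinase mTor, with 96.3 and 72.5 CPM, against 28.6 and 41.4 (1.27 ± 0.24). REPTOR-BP, partner of a transcription factor that TOR represses, was lower, with 27.1 and 39.7 CPM, against 79.3 and 63.1 (-1.09 ± 0.19). InR, Pi3K92E and REPTOR-BP were called with the offsets, and mTor was not. In these lists edgeR called 0 genes without NkdΔD6 replicate 1 (at an unadjusted p, 34 chromatin, 20 cell cycle and 8 growth genes higher) and 0 without GFP replicate 1 (32, 21 and 6), and the growth list had 5 higher without NkdΔD6 replicate 2.

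Lists of short housekeeping genes lay on the other side. Of 88 cytoplasmic ribosomal protein genes, 1 was called higher and 14 (15.9%, beside 5.81% of all genes) lower, and 83 had a negative log2 fold change, with a median of -0.40. RpL41, with exons of 320 bases, had 5369 and 6131 CPM in NkdΔD6, against 12367 and 9265 in GFP (-0.91 ± 0.23, adjusted p = 0.024, edgeR), and RpL29 had 1631 and 1679 CPM, against 3244 and 2556 (-0.81 ± 0.13). The exception was RpL22, with 1031 and 1001 CPM, against 418 and 625 (0.96 ± 0.19, adjusted p = 0.013), which stayed called with the offsets at 1.30. It shares 34.3% of its exon bases with another gene, so its reads are assigned with less certainty.

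Of 71 mitochondrial ribosomal protein genes 0 were called higher (0 also by DESeq2 on the 4 libraries and at an unadjusted p) and 6 (8.45%, beside 5.81% of all genes) lower. Of 67 oxidative phosphorylation genes 1 was called higher and 5 (7.46%) lower, so both lower shares lay near that of all genes. The gene higher was blw, the α subunit of ATP synthase, with 1332 and 1112 CPM in NkdΔD6, against 718 and 795 in GFP (0.69 ± 0.11). With the offsets the medians of the 3 lists moved to -0.03, 0.09 and 0.12, against -0.40, -0.33 and -0.25 without them, and 1, 0 and 0 genes were called lower. EdgeR called 0 genes of the 3 lists without NkdΔD6 replicate 1 (at an unadjusted p, 8, 7 and 2 lower), 0 without GFP replicate 1 (4, 2 and 1), and 7, 3 and 2 lower without NkdΔD6 replicate 2. With RLE they were 5, 4 and 2, and with DESeq2 on the 4 libraries 6, 3 and 2.

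Of 35 proteasome genes 2 (5.71%, beside 10.4% of all genes) were called higher and 1 lower, with a median of -0.17, and with the offsets 3 were higher and 0 lower, with a median of 0.19. Rpn2, a subunit of the regulatory base, had 378 and 310 CPM in NkdΔD6, against 162 and 195 in GFP (0.94 ± 0.15, adjusted p = 0.0095, edgeR), and was called with the offsets. Of 27 glutathione S-transferases 0 were called higher (0 also by DESeq2 on the 4 libraries and 0 at an unadjusted p) and 5 (18.5%, beside 5.81% of all genes) lower, with a median of -0.38, and with the offsets 0 and 2, with a median of -0.08. GstT3 had 7.26 and 10.6 CPM, against 24.8 and 22.4 (-1.40 ± 0.23), and with GstD3 it was called with the offsets. Leaving out NkdΔD6 replicate 1 or GFP replicate 1, edgeR called 0 genes of the proteasome and glutathione lists (2 higher in each for the proteasome, 5 and 4 lower for the transferases, at an unadjusted p).

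Markers of other tissues moved with some of these results. Wing pouch markers summed to 1182 and 1111 CPM in NkdΔD6, against 691 and 916 in GFP. Of the 12 tested, 4 (33.3%, beside 10.4% of all genes tested) were called higher, with a median log2 fold change of 0.44. With the offsets 1 was called and the median was 0.23. Trachea markers summed to 489 and 387 CPM, against 216 and 209 in GFP. Only 4 of the 10 members were tested, and 2 of these (50%) were called higher, trh and uif, while 4 members were at 0 in all 4 libraries. Most of that sum was uif, with 444.3 and 347 CPM in NkdΔD6, against 210.3 and 186 in GFP, a gene with exons of 11820 bases whose log2 fold change was 0.04 with the offsets. No trachea marker was called with the offsets, and their median was 0.10 against 0.61 without. Hemocyte markers summed to 507 and 458 CPM, against 266 and 364. The largest member of that sum was Ppn, with 265 and 198 CPM in NkdΔD6, against 74.7 and 137 in GFP. Of the 13 tested, 3 (23.1%) were called higher, Col4a1, vkg and Ppn, which encode matrix proteins. Over the 13 hemocyte markers tested, 9 had a negative log2 fold change and the median was -0.33, and with the offsets it was -0.58 and 0 were called. The defining hemocyte gene Hml stood at 4.63 and 5.65 CPM, against 7.88 and 6.03 in GFP. The part of these cells in the results for matrix genes was not tested, and in whole disks fewer cells of a type and less RNA per cell cannot be told apart.

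Gut RNA was present and uneven. The 37 gut markers summed to 1667 and 2309 CPM in NkdΔD6, against 643 and 2202 in GFP and 30.4 to 4281 in the other forms, so the groups overlapped, with a median log2 fold change of 1.36 over 33 tested. With the offsets the median was 1.73, with 0 called higher and 1 lower. LysE, a digestive lysozyme, was called higher, with 0.98 and 1.27 CPM in NkdΔD6 and 0 in GFP (at least 14.0-fold), and Mal-A3 was called lower. LysS had 34.2 and 38.4 CPM, against 3.33 and 3.04 in GFP, but 42.2 and 0.10 in full-length Nkd, and its adjusted p was 0.276. DESeq2 on the 4 libraries called 13 gut markers higher and 2 lower. Bace and CG13324 were not in the list. The part of gut RNA in the Bace, CG13324 and Mal-A3 results was not tested. Salivary gland markers summed to 352 and 1103 CPM, against 4957 and 653 in GFP. Of the 13 tested, 0 were called by edgeR or by DESeq2 on the 4 libraries and 0 at an unadjusted p. Their median was -1.18, and -0.73 with the offsets, but 0.35 without GFP replicate 1.

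**Figure D5:**
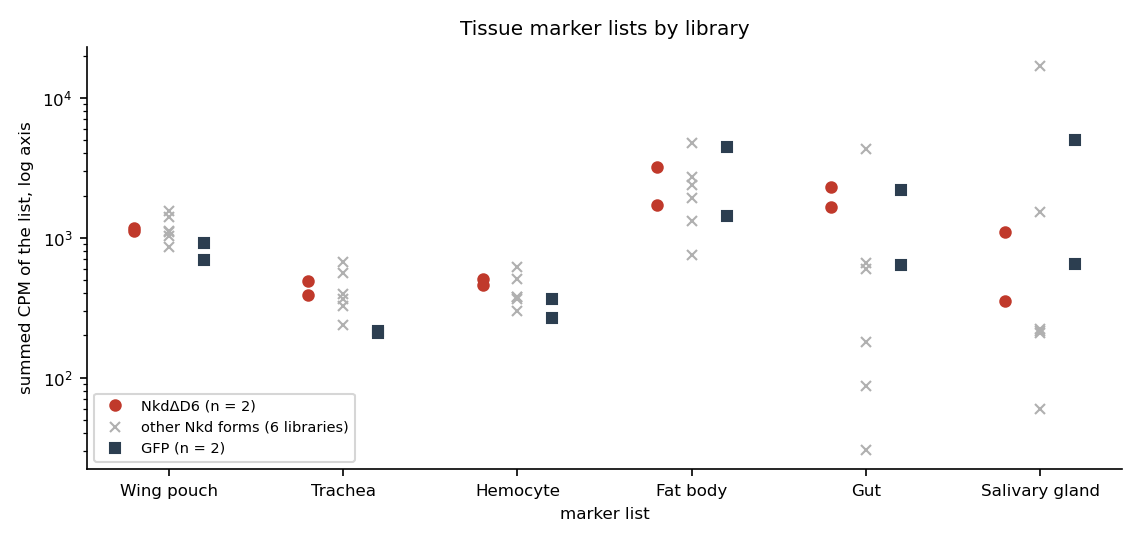
Summed CPM of 6 marker lists (y axis, log) in each library, with NkdΔD6 as circles, the other Nkd forms as crosses and GFP as squares. Wing pouch, trachea and hemocyte sums are higher in both NkdΔD6 libraries than in GFP. Of the 13 hemocyte markers tested, 9 had a negative log2 fold change. Gut and salivary gland sums spread widely within groups, gut from 30.4 to 4281 CPM.

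Genes of chromosome 4 differed from those of the other arms. Of 82 tested there, 3 were called higher and 14 lower (17.1%), while on the other arms 4.31% to 7.34% were lower. With the length offsets 0 were higher and 22 lower, and the median was -0.47, against -0.04 to 0.03 on the other arms. The shift depended on single libraries of both groups. In NkdΔD6 replicate 1 the median chromosome 4 gene lay 0.33 below its mean over the 10 libraries, whereas NkdΔD6 replicate 2 was at 0.01, GFP at 0.00 and 0.20 and the other forms at -0.04 to 0.11. Without NkdΔD6 replicate 1 the median was -0.10, like that of all genes, and edgeR called 0 of them lower (4 at an unadjusted p). Without GFP replicate 2, the highest library, the median was -0.04 with 5 called lower, without GFP replicate 1 it was -0.31 with 0 (8 at an unadjusted p), and without NkdΔD6 replicate 2 it was -0.46 with 19.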

How the data were processed

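RNA of 10 wing disk samples was sequenced. Per the methods, paired-end reads were mapped with HISAT2 2.2.1 on BDGP6, and the authors deposited raw counts per gene from featureCounts, with each gene's exon length, here read as another value of the table. Strand handling was not given in the sources used here, and counts of overlapping genes are uncertain. Of 17807 gene IDs, 17710 matched a symbol. All 10 libraries entered 1 fit in R 4.3.3 with edgeR 4.0.16: TMM, its expression filter by group, the robust quasi-likelihood test and Benjamini-Hochberg adjustment over all genes tested, with 5 residual degrees of freedom. The SE was derived from the log2 fold change and F. Depth was 19116476 to 20581154 counts in the 4 libraries, and its part in the precision, beside the spread between 2 samples, was not tested. Counting intervals (95%) and floors of 3 counts cover counting error only. The code was tested on simulated data.

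Members and lists, 42 with 1 more added after values were seen, were chosen with earlier results of these data known. Named are nkd, wg, dpp and dsh, the 12 largest changes each way with at least 5 CPM and no overlap of libraries, the 3 highest and 3 lowest called members of a list, the 5 largest each way against Nkd, and tissue markers. Exceptions are Myc, Cyp6t3, CG6059 and other genes among the calls against Nkd. Alternatives were RLE, no filter, DESeq2 1.42.0, edgeR on 4 libraries, a replicate block, exon length offsets (lowess, span 0.3, prior count 2), and leaving out each replicate. The authors' own fold changes were not used.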

Additional observations from a re-analysis of the deposited data

How the results depend on the processing

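Of the NkdΔD6 against GFP results, the counts of genes higher and lower, 959 and 538, were 1090 and 320 with RLE, 1008 and 286 without the filter, 1201 and 349 with DESeq2 on the 4 libraries, 1018 and 313 with edgeR on the 4 libraries, 281 and 263 with exon length offsets, 397 and 133 at a 2-fold threshold, and 1026 and 322 without Nkd replicate 1, a setting added after seeing the data. Leaving out each NkdΔD6, GFP or Nkd replicate in turn gave 0 to 1129 higher and 0 to 519 lower, and a log2 fold change of nkd from 4.10 to 5.06, with an adjusted p of 0.067 without NkdΔD6 replicate 1 (4.21). The causes were not tested. Against full-length Nkd, the counts of 7 and 5 were 59 and 50 with DESeq2 on all libraries, 14 and 15 with exon length offsets and 15 and 19 without the filter, and leaving out each NkdΔD6, Nkd or GFP replicate in turn gave 0 to 5 and 0 to 5. The GFP ones were added after seeing the data.

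With the replicate number as a block the counts were 977 and 493 against GFP and 4 and 4 against Nkd, and with block and exon length offsets 284 and 243 against GFP and 12 and 10 against Nkd. The numbers were not taken to pair the samples. The differences between replicates correlated at -0.05 between NkdΔD6 and GFP across genes. Over all pairs of groups they ran from -0.22 (NkdΔD6 and full-length Nkd) to 0.37 (NkdΔR1S and full-length Nkd).

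Signs reversed for 3 genes, called in none of these fits: Myc was at -0.058 and -0.059 with exon length offsets, without and with the block, dpp was at -0.27 with exon length offsets, alone or with the block, and dsh at 0.0022 and 0.0053 with DESeq2 on all and on 4 libraries, 0.0011 with RLE, and 0.0052 without the filter. Leaving out each replicate, dsh ranged from -0.099 to 0.075. Of 104 named genes compared with GFP, 51 lost their call and kept their sign with the offsets. The 104 include the 3 genes above and genes not called as fitted, such as wg. Every named gene that was called lost its call without NkdΔD6 replicate 1, and most did without GFP replicate 1. These results rest on 2 samples a group, and the part of depth in them was not tested.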

Other observations

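A list of 36 genes for nucleolar and ribosome assembly factors was chosen after values were seen and is therefore given only as a description. In NkdΔD6 disks 6 (16.7%, beside 10.4% of all genes tested) were called higher and 1 (2.78%, beside 5.81%) lower. The median log2 fold change was 0.01. With exon length offsets 8 were higher (3.03% over all genes) and 0 lower (2.84% over all genes), with a median of 0.26. Noc1, an export factor of the large subunit, had 79.3 and 56.3 CPM in NkdΔD6, against 19.5 and 29.8 in GFP (1.46 ± 0.28, adjusted p = 0.012, edgeR, and 1.20 with the offsets). Tsr1, of small subunit maturation, had 107 and 85.0 CPM, against 38.7 and 49.0 (1.13 ± 0.18), and Mat89Ba had 69.7 and 53.9 CPM, against 25.4 and 31.8 (1.11 ± 0.16). All 6 genes called higher were called with the offsets as well. Without NkdΔD6 replicate 1 or GFP replicate 1 edgeR called 0 of the 36 (6 and 8 higher at an unadjusted p under 0.05), and DESeq2 on the 4 libraries called 7 higher and 0 lower.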
